A study of Mus musculus with 18 samples.

Results

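The 9 genes described here are the cyclin-dependent kinase (CDK) inhibitors Cdkn1a, Cdkn1b, Cdkn2a, Cdkn2b, Cdkn2c and Cdkn2d and the D-type cyclins Ccnd1, Ccnd2 and Ccnd3, taken by name from an expression table of 43346 genes, whether expressed or silent. They were followed in MC3T3-E1 subclone 4 cells, a clonal line of pre-osteoblasts from mouse calvaria labelled as C57BL/6, after 3 days in osteogenic medium with ascorbic acid and glycerol phosphate. Some samples received 2.5 µM EPZ6438, which blocks the histone methyltransferase EZH2, and others its vehicle, 0.25% DMSO; the labels do not say if DMSO was present with EPZ6438. RNA sequencing covered 3 EPZ6438 and 3 DMSO samples. The histone marks H3K27me3 and H3K4me3 were mapped by chromatin immunoprecipitation in 2 samples per mark and arm, each pair analysed here as 1 list of merged peaks, so that peaks carry no replicate error.

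Passage from G1 into S phase is driven by D cyclins, which bind and activate the kinases CDK4 and CDK6 so that these phosphorylate the retinoblastoma protein and release E2F factors. Proteins of the Ink4 family, encoded by Cdkn2a, Cdkn2b, Cdkn2c and Cdkn2d, bind CDK4 and CDK6 and block them. Proteins of the Cip/Kip family, encoded by Cdkn1a and Cdkn1b among others, inhibit CDK2 complexes and also bind complexes of the D cyclins. The Cdkn2a and Cdkn2b locus is a long-known target of Polycomb repression, in which EZH2 writes H3K27me3, and Cdkn2a encodes both the CDK inhibitor p16Ink4a and, from a separate first exon, the p53 activator p19Arf.

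Libraries held 20023137 to 24140050 reads in genes with EPZ6438 and 18807156 to 25365513 with DMSO. Expression is given as RPKM, which scales the reads of a gene to its length and to the library's total, so that levels of different genes can be set side by side. Changes are log2 differences of RPKM + 0.1, EPZ6438 minus DMSO, from a limma fit over 14213 genes, with a threshold of 0.05 on the Benjamini-Hochberg adjusted p. In that fit 7.04% of genes passed, 3.8% higher and 3.24% lower with EPZ6438, and in 26.7% the 3 EPZ6438 libraries did not overlap the 3 DMSO libraries. The labels do not say that samples are separate cultures, so a p-value here reflects only how far these samples spread, and that spread may be technical. Of 8 osteoblast markers 5 rose (Runx2, Sp7, Alpl, Ibsp and Bglap) and 1 fell (Spp1). Their summed level was 3326 to 4482 RPKM with EPZ6438 and 1869 to 3496 RPKM with DMSO, most of it Col1a1, which did not pass and whose arms overlapped (2383 to 3583 RPKM with EPZ6438 and 1320 to 3039 RPKM with DMSO). Summed levels of 5 chondrocyte markers were 84.3 to 114 RPKM with EPZ6438 and 15.5 to 25.7 RPKM with DMSO, with Acan at 0 and 2 of 3 tested higher. Most of that sum was Col2a1 (77.6 to 107 RPKM with EPZ6438 and 10.3 to 18.4 RPKM with DMSO), and Sox9 did not pass (log2 change -0.15, limma adjusted p = 0.642). Summed levels of 5 smooth muscle markers were 1625 to 1649 RPKM with EPZ6438 and 2157 to 2296 RPKM with DMSO, with 1 of 4 tested higher and 1 lower, the lower one being Acta2, which made up most of the sum. The part of these shifts in the results on the 9 genes was not tested. Markers of blood cells (at most 1.80 RPKM summed, with Cd3e and Hbb-bs at 0), endothelium (at most 0.0683, with Cdh5, Kdr and Emcn at 0) and fat cells (at most 0.239, with Cfd at 0) were low. Of the blood cell markers, Cd68 averaged 1.20 RPKM with EPZ6438 and 1.00 with DMSO, and Csf1r 0.238 and 0.130. Neither passed (limma adjusted p = 0.544 and 0.288). In bulk RNA, fewer cells of a kind and less RNA per cell cannot be told apart.

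Of the 9 genes, 7 had reads enough to be tested, and 4 of these 7 passed the limma test, where 7.04% of all tested genes passed. Cdkn1a and Ccnd1 rose, and Cdkn1b and Cdkn2c fell. Ccnd2, Ccnd3 and Cdkn2d did not pass. Cdkn2a and Cdkn2b were listed at 0 in every library. The arms did not overlap in 5 of the 7, namely the 4 that passed and Ccnd2, against 26.7% of all tested genes. Among the 7 the median log2 change was 0.21, against -0.03 over all 14213 genes. The count of 4 became 2 without EPZ6438 replicate 1, 1 without EPZ6438 replicate 3 and 1 without DMSO replicate 2.

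**Figure D1:**
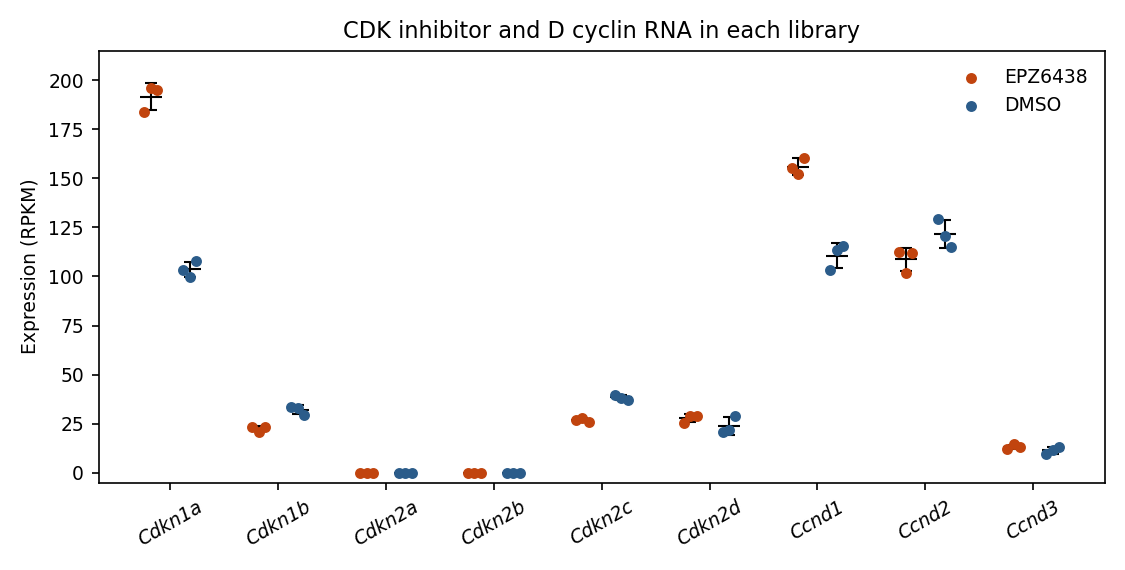
Expression of the 9 genes in RPKM on a linear axis, with 1 point per library and the mean and SD of 3 libraries as a black mark and bar. Cdkn1a with EPZ6438 sits between 184 and 196, above its DMSO libraries at 99.9 to 108, while Cdkn2a and Cdkn2b lie at 0 in both arms.

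The Cip/Kip inhibitors moved in opposite directions. Cdkn1a (ENSMUSG00000023067, chr17:29090979-29100722 of mm10), which encodes p21 and is a classic target of p53, was at 184, 196 and 195 RPKM in the EPZ6438 libraries, against 103, 99.9 and 108 RPKM in the DMSO libraries. Every EPZ6438 library was above every DMSO library. The mean was 192 ± 6.69 RPKM with EPZ6438 and 104 ± 3.94 RPKM with DMSO (SD, n = 3 each), a log2 change of 0.89 (SE 0.07, 95% interval 0.72 to 1.05, limma adjusted p = 0.000974) or 1.85-fold. Cdkn1a ranked 212 of 14213 genes by mean RPKM with EPZ6438 and 476 with DMSO. Its call was kept under all 15 alternative settings tried (adjusted p from 0.000264 to 0.0138).

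Cdkn1b (ENSMUSG00000003031, chr6:134920401-134925513), which encodes p27, was at 23.2, 20.9 and 23.4 RPKM in the EPZ6438 libraries, against 33.5, 33.2 and 29.4 RPKM in the DMSO libraries. The arms did not overlap, and all 3 EPZ6438 libraries were the lower ones. Its log2 change was -0.51 (SE 0.09, 95% interval -0.72 to -0.30, limma adjusted p = 0.0181), a fold of 0.703. The call ended without EPZ6438 replicate 1, 2 or 3 (adjusted p = 0.0626, 0.0781 and 0.0747) and without DMSO replicate 2 (adjusted p = 0.109), with a range of 0.0110 to 0.109 over the 15 alternatives. The level of Cdkn1a was 8.55 ± 0.756 times that of Cdkn1b with EPZ6438 and 3.25 ± 0.356 times with DMSO (SD, n = 3 each). The third Cip/Kip gene, Cdkn1c, which encodes p57, is named here after its values were seen. It had 4, 0 and 7 reads in the EPZ6438 libraries and 0 in each DMSO library, too few to be tested.

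Cdkn1a has 2 annotated starts, and their promoter sequences are shown because the H3K4me3 peaks lay at only one of them. The sequences are from RefSeq (GRCm38.p6, the assembly that mm10 names), run from 250 bases before to 50 after a start on the plus strand, and stand 5′ to 3′. In the upstream promoter, capitals mark matches to the p53 half-site, a motif that reads the same on both strands. In the downstream one, capitals mark the GC box GGGCGG on either strand, a motif bound by factors of the Sp family.
Cdkn1a upstream promoter, chr17:29090729-29091028: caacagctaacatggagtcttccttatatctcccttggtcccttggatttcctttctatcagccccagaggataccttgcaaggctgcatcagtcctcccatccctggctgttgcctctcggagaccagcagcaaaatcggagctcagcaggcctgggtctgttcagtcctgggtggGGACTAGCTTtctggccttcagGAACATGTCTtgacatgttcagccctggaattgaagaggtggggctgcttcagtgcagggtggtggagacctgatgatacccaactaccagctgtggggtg
Cdkn1a downstream promoter, chr17:29093519-29093818: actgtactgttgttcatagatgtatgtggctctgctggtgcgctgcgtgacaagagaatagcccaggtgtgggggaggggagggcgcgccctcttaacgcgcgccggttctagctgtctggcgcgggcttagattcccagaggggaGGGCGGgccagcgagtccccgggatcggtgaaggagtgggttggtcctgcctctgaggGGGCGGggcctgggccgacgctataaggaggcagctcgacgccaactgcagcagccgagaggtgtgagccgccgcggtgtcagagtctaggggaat
The upstream sequence held 2 p53 half-sites, no GC box and 2 CpG dinucleotides, and the downstream one held 2 GC boxes, no p53 half-site and 23 CpG. A p53 half-site occurs in 8.36% of the 32851 RefSeq promoters of this length, at least 2 occur in 0.359%, and a GC box occurs in 35.7%. A match of letters is not a bound site.

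With EPZ6438, 1 H3K4me3 peak of 1834 bp (chr17:29093736-29095569) covered the downstream start of Cdkn1a. With DMSO, the nearest H3K4me3 peak of 471 bp (chr17:29093783-29094253) began 14 bases past that start, and another of 317 bp lay 1405 bases from it. The upstream start was 2757 bases from the nearest H3K4me3 peak with EPZ6438 and 2804 bases with DMSO. H3K27me3 came no nearer to the gene than its far flank: 1 peak of 825 bp with EPZ6438, 9841 bases beyond the gene end, and 1 of 2015 bp with DMSO, 8717 bases beyond it. With DMSO a 177 bp H3K4me3 peak overlapped that H3K27me3 peak, and with EPZ6438 none did.

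Around Cdkn1b no H3K27me3 peak was listed within 10 kb in either arm. H3K4me3 was listed in 8 peaks covering 6180 bases of the gene and its 10 kb flanks with EPZ6438, against 7 peaks covering 1891 bases with DMSO. With EPZ6438 a peak of 1949 bp covered the start of the gene (chr6:134920396-134922344), whereas with DMSO the nearest was 1270 bases from it. Of these peaks 2 in each arm lay on the gene, and some of the others lay over the neighbouring gene 1190002F15Rik. More bases were under H3K4me3 peaks with EPZ6438 than with DMSO for 65.1% of tested genes. The RNA of Cdkn1b was lower with EPZ6438.

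Of the Ink4 genes outside the Cdkn2a and Cdkn2b locus, Cdkn2c fell and Cdkn2d did not pass. Cdkn2c (ENSMUSG00000028551, chr4:109660876-109667189), which encodes p18, was at 26.9, 27.9 and 25.8 RPKM in the EPZ6438 libraries, against 39.7, 38.3 and 37.1 RPKM in the DMSO libraries. The 2 arms did not overlap, and all 3 EPZ6438 libraries were below the DMSO libraries. Its log2 change was -0.51 (SE 0.07, 95% interval -0.68 to -0.34, limma adjusted p = 0.00798). The call ended without EPZ6438 replicate 3 (adjusted p = 0.0608) and without DMSO replicate 2 (adjusted p = 0.0605), the range over the 15 alternatives being 0.00622 to 0.0608.

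Cdkn2d (ENSMUSG00000096472, chr9:21288463-21291209), which encodes p19Ink4d, was at 25.4, 28.9 and 28.9 RPKM with EPZ6438 and at 20.6, 21.7 and 29.0 RPKM with DMSO. The arms overlapped, as DMSO replicate 3 lay as high as the upper EPZ6438 libraries. Its log2 change was 0.23 (SE 0.14, 95% interval -0.09 to 0.56, limma adjusted p = 0.409). In the EPZ6438 libraries the levels of Cdkn2c and Cdkn2d overlapped, with Cdkn2c at 0.973 ± 0.0830 of Cdkn2d, whereas in the DMSO libraries Cdkn2c stood above Cdkn2d at 1.66 ± 0.337 times its level (SD, n = 3 each).

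Neither gene had an H3K27me3 peak on its body. Near Cdkn2d 1 H3K27me3 peak of 276 bp was listed with DMSO, 6120 bases from the gene, and none with EPZ6438. That peak lay over another gene, Ap1m2. On Cdkn2c 2 H3K4me3 peaks were listed with EPZ6438, the nearer 135 bases from an annotated start, and none with DMSO, where the nearest peak was 6820 bases away. On Cdkn2d 2 H3K4me3 peaks were listed in each arm, the nearest 254 bases from the start with EPZ6438 and 338 with DMSO.

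Cdkn2a (ENSMUSG00000044303, chr4:89274471-89294653) and Cdkn2b (ENSMUSG00000073802, chr4:89306289-89311032) were listed at 0 reads in each of the 6 libraries. A floor of 3 reads allows at most 0.106 to 0.128 RPKM with EPZ6438 and 0.101 to 0.136 RPKM with DMSO for Cdkn2a, and at most 0.0891 to 0.107 RPKM with EPZ6438 and 0.0848 to 0.114 RPKM with DMSO for Cdkn2b, for counting error only. A listing at 0 is not rare in this table, where 29.1% of protein-coding genes had no read in any library and all 37 mitochondrial genes were at 0, so that 0 does not show by itself that RNA was absent. No peak of either mark was listed within 10 kb of Cdkn2a or Cdkn2b in either arm. Such a window held no peak of any list for 28% of all genes, 13.9% of protein-coding genes and 7.97% of the genes tested for RNA.

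The promoters of the locus are printed because neither mark was listed on them in either arm. The nearest peak of any list was 154130 bases from the p16Ink4a start, an H3K4me3 peak with EPZ6438. Sequences are from RefSeq (GRCm38.p6), on the minus strand, 5′ to 3′, with GC boxes in capitals.
Cdkn2a, p19Arf promoter, chr4:89294570-89294869: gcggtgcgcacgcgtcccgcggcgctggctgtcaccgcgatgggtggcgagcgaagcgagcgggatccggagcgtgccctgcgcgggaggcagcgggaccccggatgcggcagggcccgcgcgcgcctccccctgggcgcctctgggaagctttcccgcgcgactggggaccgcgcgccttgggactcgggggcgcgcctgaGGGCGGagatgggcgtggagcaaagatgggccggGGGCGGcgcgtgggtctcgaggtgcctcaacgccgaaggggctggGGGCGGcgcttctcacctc
Cdkn2a, p16Ink4a promoter, chr4:89282143-89282442: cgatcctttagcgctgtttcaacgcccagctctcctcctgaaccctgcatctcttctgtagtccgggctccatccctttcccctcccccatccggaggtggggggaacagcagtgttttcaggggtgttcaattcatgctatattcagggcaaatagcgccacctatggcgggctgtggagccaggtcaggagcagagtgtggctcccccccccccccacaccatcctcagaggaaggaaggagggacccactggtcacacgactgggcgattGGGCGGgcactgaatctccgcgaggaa
Cdkn2b promoter, chr4:89310983-89311282: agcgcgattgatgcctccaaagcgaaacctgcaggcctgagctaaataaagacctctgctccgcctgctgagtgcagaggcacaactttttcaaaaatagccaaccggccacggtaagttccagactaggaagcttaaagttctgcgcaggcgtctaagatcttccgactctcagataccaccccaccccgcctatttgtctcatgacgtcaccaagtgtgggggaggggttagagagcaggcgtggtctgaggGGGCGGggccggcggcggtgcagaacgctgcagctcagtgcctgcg
The p19Arf promoter held 45 CpG and 3 GC boxes, which put its CpG count at the 98.4th percentile of RefSeq promoters. The p16Ink4a promoter held 12 CpG and 1 GC box, and that of Cdkn2b 18 CpG and 1 GC box.

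The stretch without peaks or reads was wider than the 2 genes. All 4 lists together had no peak on chromosome 4 between one that ended at 89128062 and one that began at 89524224, a stretch of 396 kb (mm10). It held 11 annotated genes with 4 reads in all over 6 libraries, out of 131600974 reads in genes. Its 3 protein-coding genes were Cdkn2a, Cdkn2b and Mtap, which encodes an enzyme of methionine salvage. Mtap had 2, 0 and 0 reads in the EPZ6438 libraries and 0 in each DMSO library. The other 2 reads fell on the pseudogene Gm12608. The nearest genes to Cdkn2a and Cdkn2b in the table, Gm12606 and Gm12609, were at 0 in every library.

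Reads and H3K4me3 peaks resumed just before Mtap. The noncoding transcript Gm12602 lay next to Mtap (ends at 89128226, where Mtap is annotated from 89137122) and was at 10.6, 9.92 and 11.3 RPKM in the EPZ6438 libraries, against 19.9, 17.4 and 13.8 RPKM in the DMSO libraries. It fell, with a log2 change of -0.66 (SE 0.14, limma adjusted p = 0.0362), a call lost with no filter on low reads, without EPZ6438 replicate 1, 2 or 3 and without DMSO replicate 1 or 2 (adjusted p from 0.00910 to 0.151 over 15 alternatives). Mir31 was at 45.3, 50.3 and 41.1 RPKM with EPZ6438 and at 81.5, 66.5 and 57.8 RPKM with DMSO (log2 change -0.58, SE 0.14, limma adjusted p = 0.0533), and Gm12603 at 3.79 ± 1.04 RPKM with EPZ6438 and 5.07 ± 1.73 RPKM with DMSO (SD, n = 3 each, adjusted p = 0.495). Ifne, Gm26867 and 4930553M12Rik had at most 2 reads in any library.

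H3K27me3 was listed on both sides of the stretch. Within 500 kb of the 2 genes there were 8 H3K27me3 peaks with EPZ6438 and 38 with DMSO, but none from 411 kb before Cdkn2a to 224 kb after Cdkn2b in the DMSO list. On the autosomes, 86 stretches between neighbouring peaks of the 4 lists were at least as long as 396161 bases, this one included. Of these, 15 held no gene, 37 held a protein-coding gene and 19 held a gene with enough reads to be tested. Whether these cells still hold the DNA of this stretch was not tested, since the input libraries were not analysed here. A silent locus and a deleted one cannot be told apart from the values given.

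**Figure D2:**
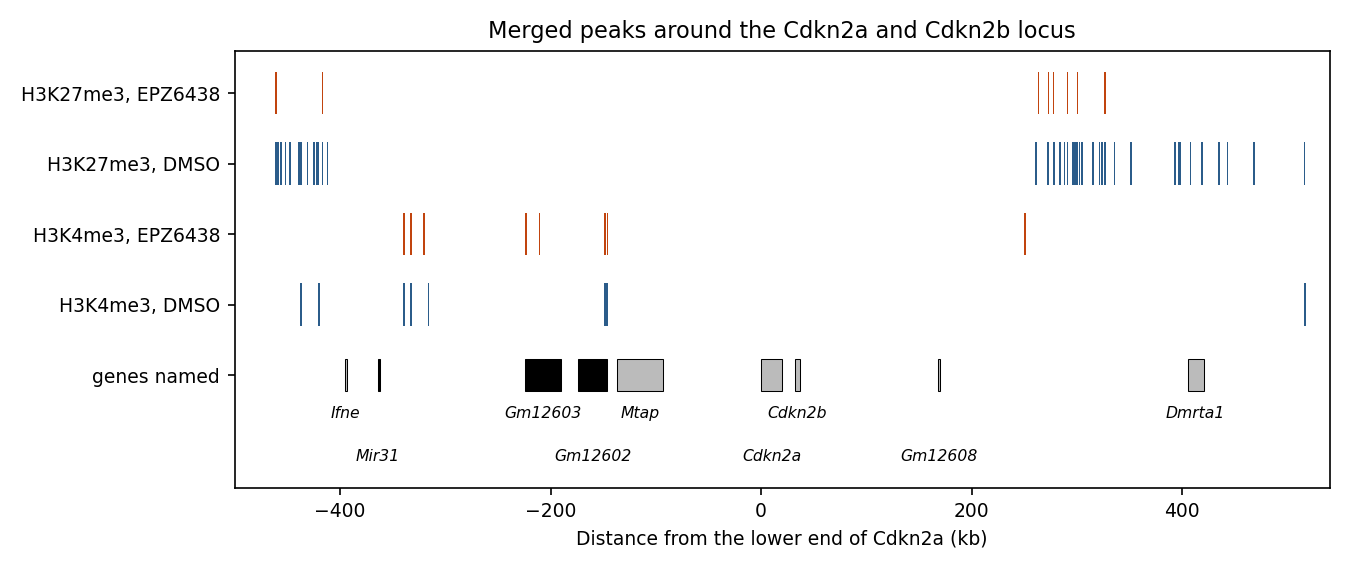
Merged peaks of 4 lists and 9 named genes, by distance in kb from the lower end of Cdkn2a, with narrow peaks drawn widened, EPZ6438 in orange and DMSO in blue. Genes with reads enough to be tested are black and the others grey, and the 396 kb around Mtap, Cdkn2a and Cdkn2b hold no peak in any list.

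Among D cyclins, Ccnd1 rose, while Ccnd2 and Ccnd3 did not pass the test. Ccnd1 (ENSMUSG00000070348, chr7:144929931-144939869), the D cyclin best known as a target of mitogen signals, was at 155, 152 and 160 RPKM in the EPZ6438 libraries, against 103, 113 and 115 RPKM in the DMSO libraries. The 3 EPZ6438 libraries were all above the DMSO libraries. Its mean was 156 ± 4.22 RPKM with EPZ6438 and 111 ± 6.51 RPKM with DMSO (SD, n = 3 each), a log2 change of 0.50 (SE 0.07, 95% interval 0.32 to 0.67, limma adjusted p = 0.0101) or 1.41-fold. The call ended without EPZ6438 replicate 1 (adjusted p = 0.0522) or 3 (0.0736) and without DMSO replicate 2 (0.0605), with a range of 0.00492 to 0.0736 over the 15 alternatives. The end of Ccnd1 overlaps Oraov1, and whether counting used strand is unknown, so reads of the 2 genes there cannot be told apart.

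Ccnd2 (ENSMUSG00000000184, chr6:127125779-127151048), another activating partner of CDK4 and CDK6, was at 112, 102 and 112 RPKM with EPZ6438 and at 129, 121 and 115 RPKM with DMSO. All 3 EPZ6438 libraries were below the DMSO libraries, the nearest pair being 112 and 115 RPKM. Its log2 change of -0.16 (SE 0.08, 95% interval -0.35 to 0.02) did not pass (limma adjusted p = 0.312). Its end of higher coordinates overlaps the noncoding gene 9330179D12Rik, whose reads cannot be told apart from it without strand.

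Ccnd3 (ENSMUSG00000034165, chr17:47505051-47599691), the remaining partner of these kinases, was the lowest of the D cyclins in every library, at 12.0, 14.4 and 12.9 RPKM with EPZ6438 and at 9.32, 11.7 and 13.1 RPKM with DMSO. The arms overlapped, and the log2 change was 0.21 (SE 0.14, 95% interval -0.13 to 0.55, limma adjusted p = 0.469).

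The 3 D cyclins summed to 278 ± 8.55 RPKM with EPZ6438 and 244 ± 2.10 RPKM with DMSO (SD, n = 3 each). Ccnd1 made up 55.5%, 56.7% and 56.2% of that sum in the EPZ6438 libraries, against 42.7%, 46.1% and 47.4% in the DMSO libraries. Ccnd2 made up 40.2%, 37.9% and 39.2% with EPZ6438 and 53.4%, 49.1% and 47.2% with DMSO. Ccnd3 made up 4.73 ± 0.578% with EPZ6438 and 4.67 ± 0.764% with DMSO. The arms did not overlap in the shares of Ccnd1 and Ccnd2, on which no test was run.

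From high to low RPKM, the order with EPZ6438 was Cdkn1a, Ccnd1, Ccnd2, Cdkn2d, Cdkn2c, Cdkn1b and Ccnd3, and only the neighbours Cdkn2d and Cdkn2c had overlapping libraries. With DMSO it was Ccnd2, Ccnd1, Cdkn1a, Cdkn2c, Cdkn1b, Cdkn2d and Ccnd3, where Ccnd2 overlapped Ccnd1 and Ccnd1 overlapped Cdkn1a. Cdkn2a and Cdkn2b stood at 0 at the end of both orders.

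**Figure D3:**
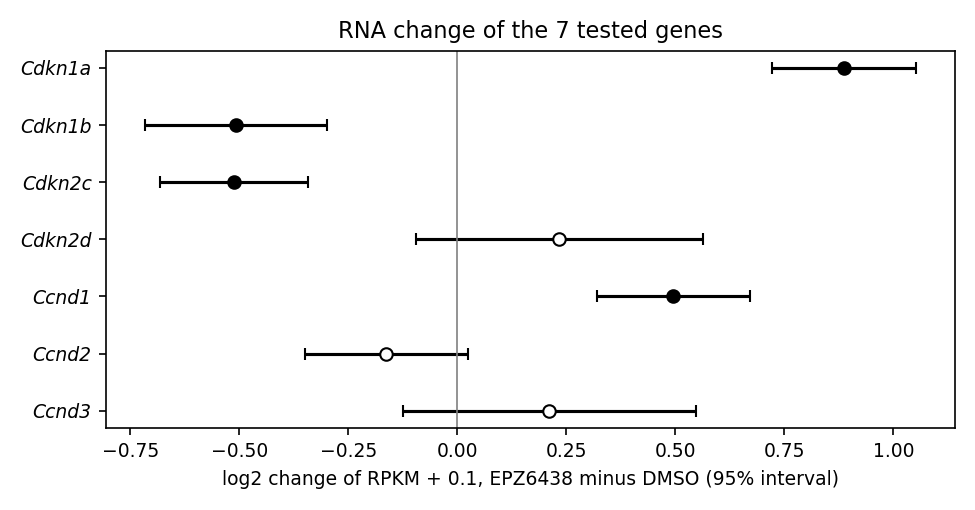
The log2 change of RPKM + 0.1, EPZ6438 minus DMSO, for the 7 tested genes with 95% intervals from the limma fit, filled points passing an adjusted p of 0.05. Cdkn1a at 0.89 and Ccnd1 at 0.50 lie to the right of 0, Cdkn1b and Cdkn2c at -0.51 to the left, and the open points of Cdkn2d, Ccnd2 and Ccnd3 have intervals that cross 0.

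Ccnd3 was the 1 gene of the 9 with H3K27me3 on its body. In the DMSO list 23 H3K27me3 peaks of 168 to 2278 bp lay over the gene and its flanks and covered 19606 bases, or 17.1% of the window. In the EPZ6438 list there were 2, of 185 and 296 bp, which covered 481 bases or 0.420%. At least 23 such peaks with DMSO were found around 1.38% of all genes and 1.07% of tested genes, with no adjustment for gene length. The whole H3K27me3 list also held fewer peaks with EPZ6438 (20764) than with DMSO (143399), at unknown depth. The RNA of Ccnd3 did not pass the test.

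RefSeq places starts of Ccnd3 at its first base and at an internal site near the other end. Both promoters are shown because no H3K27me3 peak was listed on the gene past the internal start. Both are on the plus strand (GRCm38.p6), 5′ to 3′, with GC boxes in capitals.
Ccnd3 first promoter, chr17:47504801-47505100: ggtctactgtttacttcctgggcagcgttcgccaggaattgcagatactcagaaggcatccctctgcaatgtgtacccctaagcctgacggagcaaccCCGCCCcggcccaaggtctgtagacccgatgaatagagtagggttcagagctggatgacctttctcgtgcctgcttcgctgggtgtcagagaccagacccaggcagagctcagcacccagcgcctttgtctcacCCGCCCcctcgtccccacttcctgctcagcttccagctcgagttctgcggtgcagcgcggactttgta
Ccnd3 internal promoter, chr17:47593217-47593516: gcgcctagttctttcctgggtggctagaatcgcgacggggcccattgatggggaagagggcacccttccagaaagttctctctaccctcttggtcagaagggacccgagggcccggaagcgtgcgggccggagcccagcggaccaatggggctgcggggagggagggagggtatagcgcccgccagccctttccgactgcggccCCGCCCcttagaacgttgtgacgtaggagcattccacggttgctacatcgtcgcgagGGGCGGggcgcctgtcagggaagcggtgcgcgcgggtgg
The internal promoter held 28 CpG and the first one 15, with 2 GC boxes each.

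All 22 H3K27me3 peaks on the gene with DMSO, and both with EPZ6438, lay before the internal start, the last DMSO peak ending 5139 bases short of it. H3K4me3 was listed just past that start in both arms, as 1 peak of 1428 bp with EPZ6438 (chr17:47593543-47594970) and as 2 peaks of 342 and 901 bp with DMSO. The first start had no H3K4me3 peak nearer than 3132 bases with EPZ6438 and 3197 with DMSO, and that peak lay on the neighbouring gene Taf8. Between the 2 starts the DMSO list held 7 further narrow H3K4me3 peaks, and the EPZ6438 list held 0. Of the 10 H3K4me3 peaks of the DMSO list in the window, 6 overlapped an H3K27me3 peak of that arm, against 0 of 2 with EPZ6438.

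**Figure D4:**
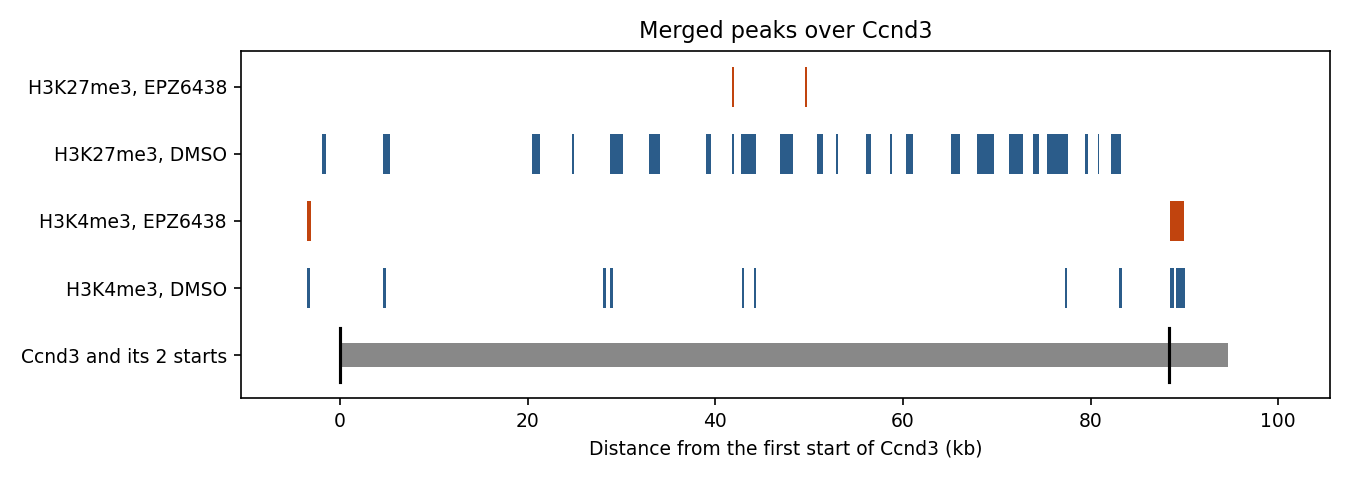
Merged peaks over Ccnd3 and its 10 kb flanks by distance in kb from its first start, with black ticks at both annotated starts. The 22 DMSO H3K27me3 peaks on the gene end before the internal start, and the EPZ6438 list has 2.

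The other D cyclins had H3K4me3 toward the end of higher coordinates and no H3K27me3 on the gene. In the window of Ccnd1 and its 10 kb flanks, H3K4me3 covered 2311 bases in 3 peaks with EPZ6438, the widest of 1180 bp, against 567 bases in 2 peaks with DMSO. All 3 EPZ6438 peaks touched the gene, against 1 of the 2 DMSO peaks, the other lying 36 bases outside it. On Ccnd2 a single peak of 1997 bp with EPZ6438 (chr6:127148553-127150549) stood against 3 peaks of 193, 301 and 205 bp with DMSO. H3K27me3 near Ccnd2 was limited to its flanks, with 1 peak of 865 bp at 9215 bases with EPZ6438 and 2 peaks of 187 and 319 bp at 6298 and 3836 bases with DMSO. Neither Ccnd1 nor Ccnd2 has a promoter entry in the RefSeq table used.

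Counted over the 9 genes, an H3K27me3 peak within 10 kb was listed for 3 with EPZ6438 and 4 with DMSO, where 17% of all genes and 12% of tested genes had one with EPZ6438, and 55.7% and 56.9% with DMSO. An H3K4me3 peak was listed for 7 with EPZ6438 and 7 with DMSO, the 7 genes with RNA, where 34.3% of all genes and 77.1% of tested genes had one with EPZ6438, and 45% and 73.5% with DMSO. More bases were under H3K4me3 peaks with EPZ6438 than with DMSO for 6 of the 9 genes, all of the 7 expressed ones except Ccnd3. The same held for 28.4% of all genes and 65.1% of tested genes, and the EPZ6438 list as a whole had fewer and wider peaks (median 401 bp, 16216 peaks) than the DMSO list (median 212 bp, 40113 peaks). Fewer bases were under H3K27me3 with EPZ6438 for 3 of the 9, namely Cdkn1a, Cdkn2d and Ccnd3, against 55% of all genes and 56.2% of tested genes. The H3K27me3 lists held 20764 peaks with EPZ6438 and 143399 with DMSO, and the depth behind any list is unknown.

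**Figure D5:**
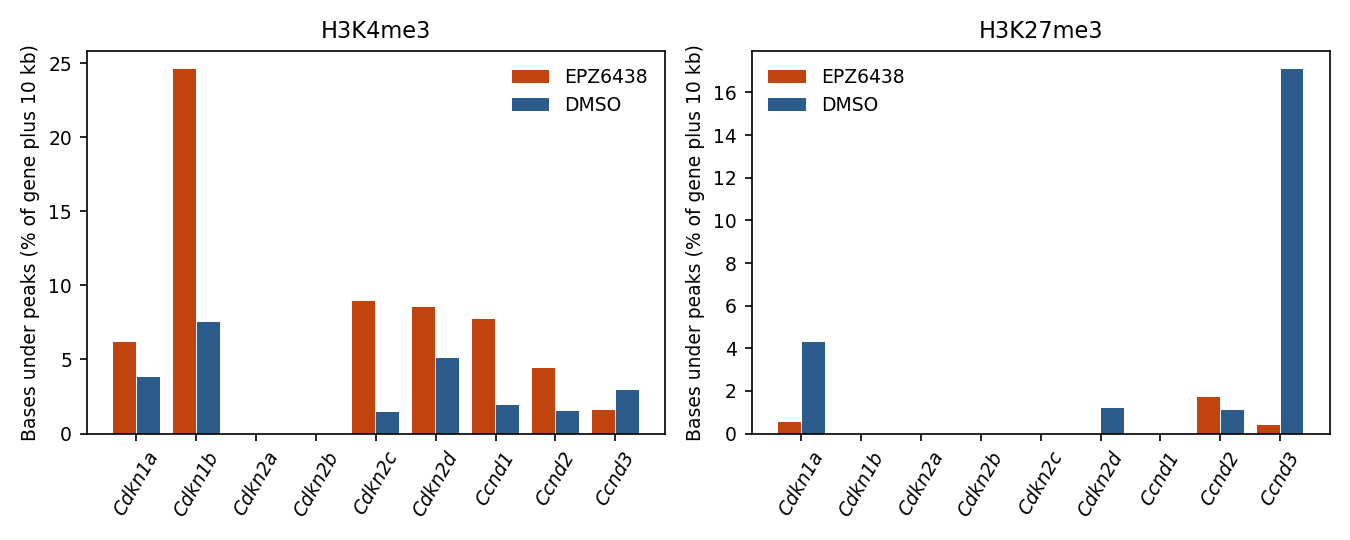
Bars give the share of bases under merged peaks in each gene and its 10 kb flanks, for H3K4me3 on the left and H3K27me3 on the right, with no error because each arm has 1 list. For H3K27me3 the bar of Ccnd3 with DMSO reaches 17.1% and that with EPZ6438 0.420%, while Cdkn2a and Cdkn2b have no bar for either mark.

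Kinases, partners and targets of these genes were read from lists, beside shares over all 14213 tested genes of 7.04% that passed limma, 8.22% that passed voom and 20.6% with an unadjusted p under 0.05. Of 7 CDK partners and CDK-activating kinase genes none passed the limma test, and none had an unadjusted p under 0.05 or passed voom. Cdk4, the kinase bound by D cyclins and Ink4 proteins, was the most abundant at 131 ± 6.62 RPKM with EPZ6438 and 138 ± 12.1 RPKM with DMSO (SD, n = 3 each; log2 change -0.08, SE 0.09, adjusted p = 0.680). Of 8 tested other cyclins and CDK regulators 0 passed, 1 had an unadjusted p under 0.05 and 0 passed voom, with Ccna2, the cyclin of S phase, at a log2 change of 0.04 (SE 0.14). Of 11 pocket protein and E2F genes 0 passed by limma or voom and 3 had an unadjusted p under 0.05, with E2f4, a repressor of E2F targets, at a log2 change of 0.12 (SE 0.10). Median log2 changes of the 3 lists were -0.08, 0.05 and -0.01, against -0.03 over all tested genes.

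Among 10 upstream factors and genes of protein turnover 0 passed by limma or voom and 1 had an unadjusted p under 0.05, with a median log2 change of 0.02. Skp1a, a subunit of the ubiquitin ligase that degrades p27, had a log2 change of -0.09 (SE 0.15). Of 11 genes of Polycomb repressive complex 1, which binds H3K27me3, 0 passed by limma or voom and 1 had an unadjusted p under 0.05, with a median log2 change of -0.05. Bmi1, a repressor of Cdkn2a in mice, was at 33.5 ± 3.24 RPKM with EPZ6438 and 29.2 ± 5.86 RPKM with DMSO (SD, n = 3 each; log2 change 0.21, SE 0.15, adjusted p = 0.494). Of 17 genes of S phase and mitosis 0 passed by limma or voom, and the limma count became 1 without DMSO replicate 3. An unadjusted p under 0.05 was found for 5, against 20.6% of all tested genes. Their median log2 change was 0.14, against -0.03 over all tested genes. Of the 17 values 15 were above 0, a share that was not counted over all tested genes. Pcna, the sliding clamp of DNA replication, had a log2 change of 0.16 (SE 0.07, adjusted p = 0.237).

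Other p53 target genes were looked at beside Cdkn1a. Of 15 tested, 1 rose in the limma test and 0 fell, where 3.8% of all tested genes rose. An unadjusted p under 0.05 was found for 4 of the 15, against 20.6% of all tested genes, and voom called 2, against 8.22%. The median log2 change was 0.23, against -0.03 over all tested genes. Of the 15 values 14 were above 0, a share that was not counted over all tested genes. Btg2, an antiproliferative gene, was the 1 that rose, at 16.9 ± 0.483 RPKM with EPZ6438 and 11.5 ± 0.238 RPKM with DMSO (SD, n = 3 each; log2 change 0.55, SE 0.08, limma adjusted p = 0.00710). Its call ended without EPZ6438 replicate 3 (adjusted p = 0.0516) and without DMSO replicate 2 (0.0531), the range over 15 alternatives being 0.00540 to 0.0531, and the count of 1 became 0 without either of these libraries. It became 2 without DMSO replicate 1 and 3 without DMSO replicate 3.

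For the 4 genes that passed, the tested genes with the most similar profile over the 6 libraries were found by the root mean square distance of log2 values centred on each gene's mean. For Cdkn1a these were Pdlim1, Klf4 and Sp7 (0.0241, 0.0272 and 0.0323). For Ccnd1 they included Vegfa and Tnn (0.0190 and 0.0200). For Cdkn1b they were Katnal1, Sorbs2 and Glb1l (0.0295, 0.0322 and 0.0328), and for Cdkn2c they were Cap2, Dync2li1 and Lima1 (0.0299, 0.0312 and 0.0380). Of those named, all passed the limma test but Katnal1 (adjusted p = 0.0845). They were picked for likeness to a gene that had passed, in the same libraries, so their passing is no separate result. The 6 libraries form 2 arms, and the measure does not separate the difference between arms from the spread within them.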

How the data were processed

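RNA was measured in 3 EPZ6438 and 3 DMSO libraries, grouped and numbered by their titles. Expression values are RPKM as computed and deposited by the authors, per the file headers. Peaks were deposited as 1 merged list for a mark in an arm, holding other values, namely start and end positions without heights or scores. Build mm10 and, without roles, STAR 2.6.1c, Subread, MACS2, HOMER, DiffBind, Picard, FastQC and bcl2fastq stand in the list of tools, per the submitters' processing notes. Peak thresholds, annotation release and strand setting were not given in the sources used here.

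Whole reads were recovered from the RPKM steps (100% of values whole, tolerance 0.001) and gave 18807156 to 25365513 reads per library. Genes with at least 10 reads in at least 3 libraries were tested by limma 3.58.1 (R 4.3.3; trend, empirical Bayes, two-sided, no covariates) on log2(RPKM + 0.1), a scale that understates changes of low genes. P-values were adjusted by Benjamini-Hochberg over all 14213 tested genes. Tables and figures were made with Python 3.11.15, numpy 2.4.6, pandas 2.3.3, scipy 1.17.1 and matplotlib 3.10.9. Floors of 3 reads cover counting error only.

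A peak was counted to a gene where it overlapped the gene plus 10 kb on each side by at least 1 base. Promoters came from RefSeq (GRCm38.p6, 250 bases before to 50 after a start) and matched 7 of the 9 genes by symbol.

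The genes and lists were chosen with earlier results of these data known. Named besides the 9 genes were genes with reads within 500 kb of Cdkn2a and Cdkn2b with the nearest gene on each side, up to 4 members of each pathway list that passed or else its most abundant tested member, and the 3 genes nearest in profile to each gene of the 9 that passed, of which 1 is not reported here. Cdkn1c, Oraov1, 9330179D12Rik, 1190002F15Rik, Taf8, Ap1m2 and marker genes fall outside that rule. Alternatives covered the pseudocount, the filter, the scaling, voom on recovered reads, a replicate block, each library left out, and the window and width of peaks. Same-numbered libraries deviated together with correlations of 0.41, 0.08 and 0.06, and different-numbered ones with -0.41 to 0.33. The main fit did not take the numbers as pairs, and whether they are pairs is unknown.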

Additional observations from a re-analysis of the deposited data

How the results depend on the processing

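Over 15 alternatives no log2 change of the 7 tested genes changed sign, and Cdkn1a passed in each. Of all genes, 1001 passed, against 628 with no filter, 1168 by voom on recovered reads, 1053 with median-of-ratios scaling and 323 to 978 with a library left out. Higher with EPZ6438 were 540, against 355 with no filter, 331 with a mean of at least 1 RPKM and 227 to 515 with a library left out. Lower were 461, against 273 with no filter and 90 to 463 with a library left out. Under the replicate block 1051 genes passed, 4 of the 9 genes again among them. EPZ6438 replicates 1 and 3 correlated best with the DMSO library of their own number (0.41 and 0.06). EPZ6438 replicate 2 correlated best with DMSO replicate 3 (0.33), not with its own number. With a library left out, 1 to 4 of the 9 genes passed, 0 to 3 p53 targets and 0 to 1 genes of S phase and mitosis. The p53 targets that passed numbered 2 by voom and 2 under the replicate block. For H3K27me3 with EPZ6438 the count of 3 genes became 1 on the gene alone, 1 with 5 kb flanks and 0 at gene ends. For H3K27me3 with DMSO the count of 4 became 1 on the gene alone, 2 with 5 kb flanks, 0 at gene ends and 2 with peaks of at least 400 bp. For H3K4me3 with DMSO the count of 7 became 3 at gene ends and 3 with peaks of at least 400 bp. Peak lists carry no depth or replicate, so a missing peak does not show that a mark is absent.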
